A study of Mus musculus with 12 samples.

Results

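The effect of the lipoxygenase inhibitor ML351 on mouse islets, averaged over both cytokine backgrounds, was measured across all 14089 genes of the deposited count table in all 12 of its 12 libraries. It is the mean of 2 differences, ML351 minus vehicle and the combination minus cytokines, so that 6 libraries with ML351 stood against 6 without it and each library was set against its own cytokine background. Islets of C57BL/6J mice, isolated from collagenase-perfused pancreata, were kept for 24 h in 1 of 4 ways with 3 libraries each: vehicle, ML351 at 10 µM, a cytokine cocktail, or cocktail and ML351 together. In the cocktail IL-1β was at 5 ng/ml, TNF-α at 10 ng/ml and IFN-γ at 100 ng/ml. The labels use replicate numbers 1, 2 and 4 for vehicle, 1, 2 and 3 for ML351, 1, 3 and 4 for cytokines, and 1, 2 and 4 for the combination. One dose and one time were tested, the solvent of the vehicle is not given in the sources used here, and the labels do not state whether the 3 libraries of a group stem from different mice or dishes. The p-values therefore refer to the spread among these libraries, and that spread may be technical.

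ML351 inhibits 12/15-lipoxygenase, which adds oxygen to arachidonic acid and other polyunsaturated fatty acids and is made in mouse islets by both beta cells and macrophages. Its products and the peroxides that accompany them are linked to oxidative stress and inflammation of islets in type 1 diabetes, and the cytokines used here imitate that inflammation in culture. Islets are small organs of endocrine cells that also hold endothelial cells, resident macrophages and, after isolation, some exocrine tissue. The average gives the mean effect of the inhibitor over inflamed and uninflamed islets, and a gene can be called in it on an effect in one of them alone. The targeted enzyme is blocked as a protein and not removed, so its transcript is no check of the labels, and Alox15 and Alox5 were not analysed here. Alox12, a platelet-type lipoxygenase, had 0.594, 0.28 and 0.23 CPM (read counts scaled to the size of the library) in vehicle, 0.382, 0.328 and 0.315 under ML351, 12.9, 13.3 and 16.1 under cytokines and 11.8, 9.49 and 13.1 in the combination (averaged log2 fold change -0.22, SE 0.20, adjusted p = 0.63).

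The libraries held 20208286 to 27193026 counts, and 13543 genes had a count in every library. Insulin mRNA dominated all of them, with Ins2 at 191623 to 262043 CPM, so the labelled tissue was borne out by its defining marker. The first principal component, with 82.3% of the variance, separated the libraries with cytokines from those without. ML351 replicate 1 and cytokines replicate 1 stood at opposite ends of the second, with 5.14% (scores of -36.8 and 42.29). Acinar markers, from enzyme-producing exocrine cells, differed strongly between libraries: 23 of 29 listed markers were in the table, none of them was at 0 in any library, and their summed level was 263 to 804 CPM in vehicle, 213 to 407 with ML351, 54.4 to 1003 with cytokines and 1155 to 1705 in the combination. The kit kept no strand, so reads from exons shared with another gene cannot be told apart. Of the genes named below as called this touches Pdia6 (Atp6v1c2), Nr1d1 (Thra), Plk3 (Tctex1d4), Igsf5 (Pcp4), Ppip5k2 (Gin1), Senp5 (Ncbp2), Pcsk1n (Eras) and Ankrd37 (Lrp2bp and Ufsp2). Counts of called genes are also given without those 2 libraries and with the acinar level as a covariate.

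With ML351, 218 of 14089 genes changed in the averaged contrast at an adjusted p under 0.05 (1.55%, edgeR's quasi-likelihood test with Benjamini-Hochberg adjustment over all genes), 94 upwards (0.667%) and 124 downwards (0.88%). An unadjusted p under 0.05 was reached by 2386 genes (16.9%). The changes were small. The median size of a called change was 0.28 on the log2 scale, against 0.10 over all genes, the smallest was 0.15, and all genes together were centred on 0.007. Of all genes 52.2% lay above 0. That share and the called shares are the background for each list below. A fitted change of over 2-fold was seen for 1 called gene that rose, Agpat9, and for 5 that fell, Cyp1a1, Ahrr, Oprl1, Vwf and Lpcat2. In 142 of the 218 (65.1%) the ML351 libraries lay wholly above or wholly below their controls within each background, in the same direction, which held for 405 of all 14089 genes (2.87%). The called genes were chosen by the contrast of these same libraries, so their higher share follows in part from that choice and is given as a description. With DESeq2's size factors in place of TMM scaling, edgeR called 221 genes, split into 68 higher and 153 lower. Without ML351 replicate 1 and cytokines replicate 1 it called 43, and with the acinar covariate 63. Leaving out 1 library at a time gave 52 to 270 calls, with 52, 57 and 68 without vehicle replicates 1, 2 and 4, 97, 154 and 219 without ML351 replicates 1, 2 and 3, 85, 134 and 81 without cytokines replicates 1, 3 and 4, and 149, 115 and 270 without combination replicates 1, 2 and 4.

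The 2 differences in the average share no library but share the scaling and the estimate of spread. They had the same sign in 215 of the 218 called genes, and the one with cytokines was the larger in 146. Selection by their average largely fixes that agreement, so nothing is read from it. The exceptions were Stk38l, Gdap1l1 and Mcoln1, where one of the differences was close to 0. Taken alone, ML351 against vehicle called 5 genes (0.0355%, and 1265 or 8.98% before adjustment), namely Xpo1, Clec7a, Enpp2, Atp7a and Mcoln1, and the combination against cytokines called 202 (1.43%, and 2212 or 15.7% before adjustment). Among the 1265 genes chosen without cytokines, 71.9% had the same sign with cytokines. Among the 2212 chosen with cytokines the share without was 68.5%, and over all genes it was 58.7%. Across all genes they correlated weakly (Pearson's r = 0.28, Spearman's rho = 0.24, a description, since genes are not replicates).

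**Figure D1:**
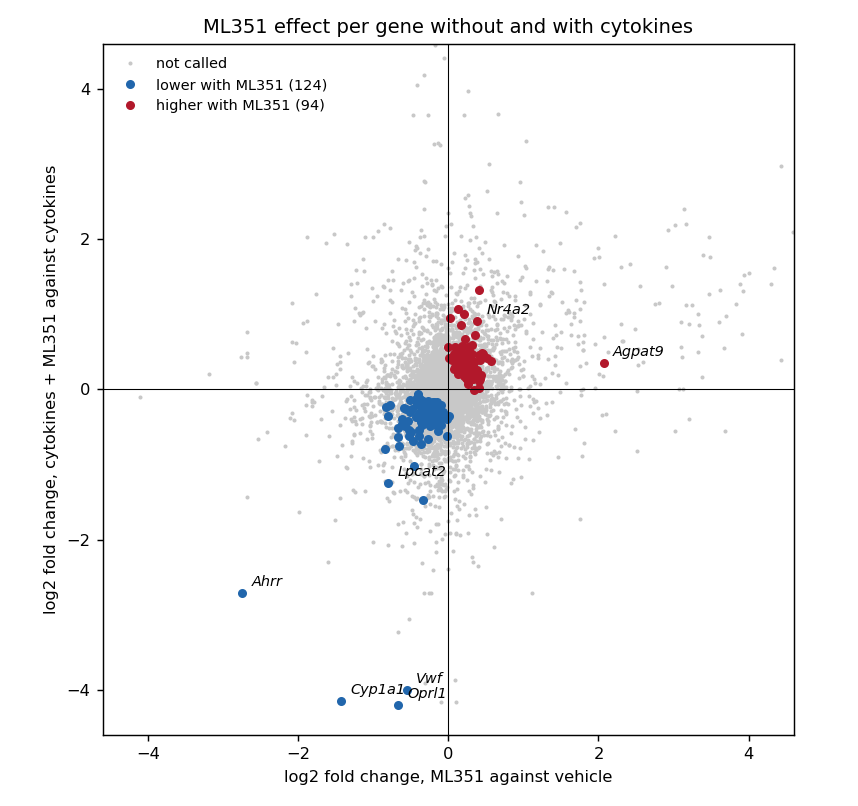
Each point is a gene, with the log2 fold change of ML351 against vehicle on the x axis and of the combination against cytokines on the y axis. Genes called in the averaged contrast are blue (124 lower) or red (94 higher) and lie mostly in the lower left and upper right, and 15 genes, none of them called, fall outside the plotted range of 4.6 either way.

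Targets of the aryl hydrocarbon receptor, a ligand-activated transcription factor that switches on genes for metabolism of foreign chemicals, held the largest falls. The promoters of Cyp1a1, Ahrr and Cyp1b1 are shown because these 3 genes had the lowest values of their list and are textbook targets of that receptor. They are RefSeq windows on GRCm38.p6, from 250 bases before to 50 after the start, written 5′ to 3′ on the gene's strand, at chr9:57697363-57697662 (plus), chr13:74292282-74292581 (minus) and chr17:79715012-79715311 (minus). Capitals mark GCGTG, the core of the receptor's response element, or CACGC where it lies on the other strand.
Cyp1a1: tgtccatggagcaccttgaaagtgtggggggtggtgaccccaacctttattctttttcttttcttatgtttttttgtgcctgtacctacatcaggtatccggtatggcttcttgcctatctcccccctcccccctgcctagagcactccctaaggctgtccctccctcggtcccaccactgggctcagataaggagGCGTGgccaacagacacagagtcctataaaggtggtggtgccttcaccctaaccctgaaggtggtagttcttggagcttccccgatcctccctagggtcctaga
Ahrr: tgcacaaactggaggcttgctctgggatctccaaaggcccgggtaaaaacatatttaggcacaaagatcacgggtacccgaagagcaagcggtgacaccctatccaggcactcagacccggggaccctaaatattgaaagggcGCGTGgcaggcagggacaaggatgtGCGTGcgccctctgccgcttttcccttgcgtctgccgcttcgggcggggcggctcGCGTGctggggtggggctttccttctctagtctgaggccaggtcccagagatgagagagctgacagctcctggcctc
Cyp1b1: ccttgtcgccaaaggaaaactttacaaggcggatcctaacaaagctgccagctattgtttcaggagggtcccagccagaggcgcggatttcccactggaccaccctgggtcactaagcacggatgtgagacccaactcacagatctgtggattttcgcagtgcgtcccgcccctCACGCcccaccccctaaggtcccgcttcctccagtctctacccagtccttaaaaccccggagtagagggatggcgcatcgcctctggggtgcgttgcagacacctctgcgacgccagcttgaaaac
The core occurred 1 time in the Cyp1a1 window, 3 times in that of Ahrr and 1 time, on the other strand, in that of Cyp1b1. It is short and common: on either strand it was present in 32.4% of all 32851 promoter windows of this length. Of the list's 19 members tested, 16 were in the promoter table and 11 of these held it. Among them was Gsta2, which had the highest fold change of the list.

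Cyp1a1 (chr9:57687928-57703824), a monooxygenase that oxidises polycyclic aromatic compounds, had 21.1, 22 and 28.6 CPM in vehicle and 6.97, 11.8 and 7.87 with ML351. With cytokines it had 10.1, 13.0 and 18.7 CPM, and in the combination 0.293, 1.59 and 0.363. Every ML351 library was below every control of its background, and the combination was nearly empty, with 6, 36 and 7 counts. The averaged log2 fold change was -2.79 (SE 0.32, adjusted p = 0.0084), made of -1.43 without cytokines (adjusted p = 0.27) and -4.15 with them (adjusted p = 0.012), and the difference between these did not pass the interaction test (adjusted p = 0.37). Its call held without any single library and ended under an additive model (adjusted p = 0.071).

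Ahrr, which encodes the repressor of the same receptor and is itself induced by it, followed at low counts. Its libraries held 18, 14 and 11 counts in vehicle, 0, 2 and 5 under ML351, 28, 11 and 12 under cytokines and 0, 4 and 3 in the combination. The groups did not overlap in either background. Scaled to library size, the summed counts with ML351 were 0.142 of control without cytokines (95% exact interval 0.0539 to 0.319, counting error only) and 0.143 with them (0.0548 to 0.317). Its edgeR call (adjusted p = 0.021) ended without vehicle replicate 1, vehicle replicate 2 or cytokines replicate 1 (adjusted p = 0.051 to 0.058). Cyp1b1, a related monooxygenase, had 3.23, 4.20 and 1.70 CPM in vehicle against 0.552, 0.692 and 1.73 with ML351, and 25.7, 17.9 and 26.9 with cytokines against 2.25, 8.17 and 3.84 in the combination. Its groups overlapped slightly without cytokines and were apart with them (averaged log2 fold change -1.95, SE 0.40, adjusted p = 0.057). Gstm1, a glutathione transferase of a family with near-identical copies, fell by less (log2 fold change -0.24, SE 0.057, adjusted p = 0.047), and its call ended under 10 of the 12 omissions of 1 library. Tiparp, a poly-ADP-ribose polymerase induced by the receptor, had a log2 fold change of -0.18 (adjusted p = 0.13). Of the list's 19 members 3 were called, all lower, 8 lay above 0, and the median was -0.02. The highest was the glutathione transferase gene Gsta2, at a log2 fold change of 2.41 with a wide error (SE 1.02, adjusted p = 0.25). Without ML351 replicate 1 and cytokines replicate 1, and likewise with the acinar covariate, 1 of the 19 was called, and Ahrr had adjusted p-values of 0.075 and 0.051.

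**Figure D2:**
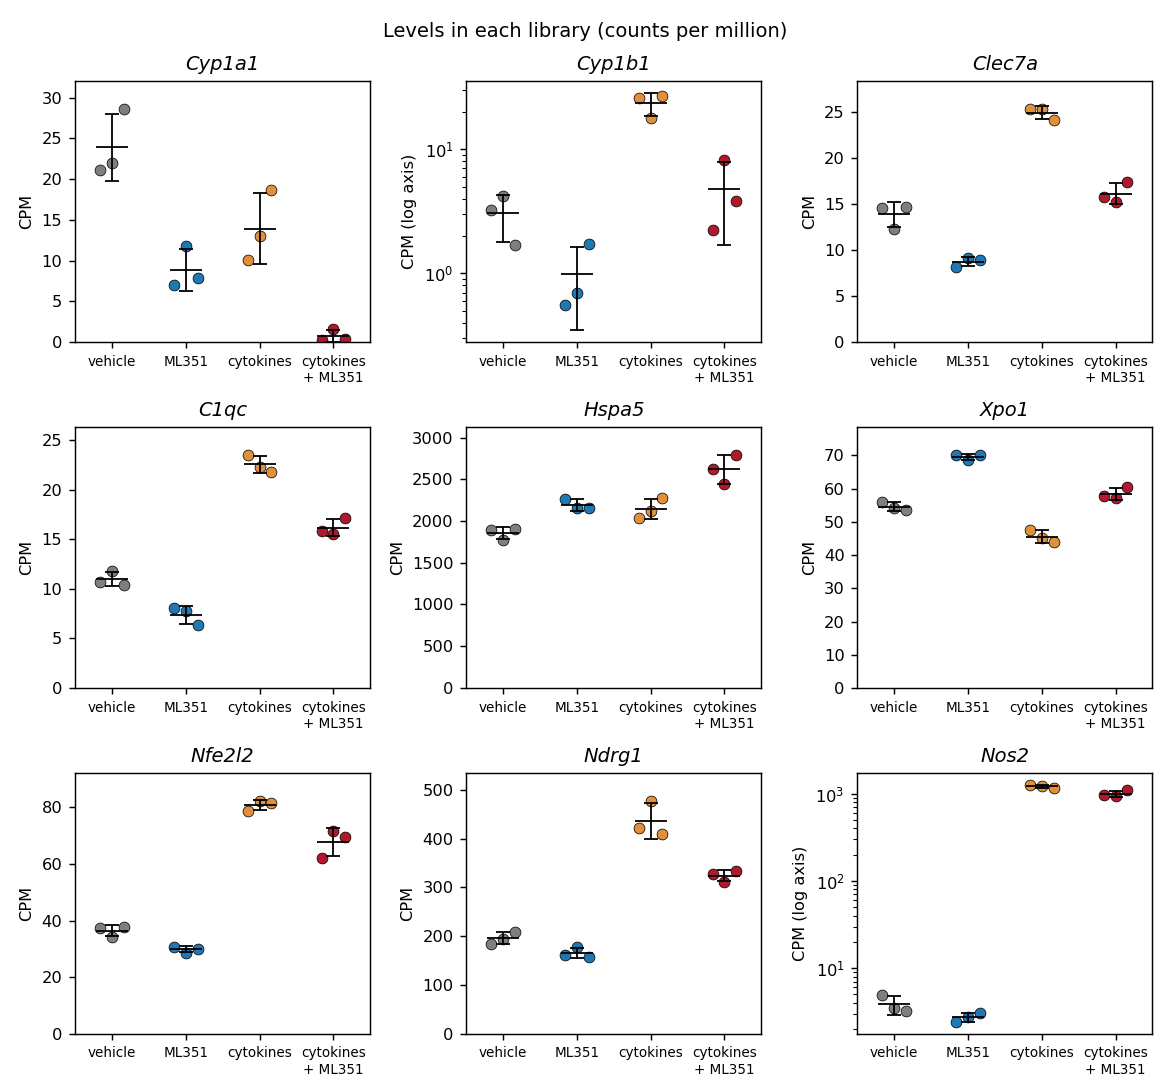
Points are the CPM of 1 library, by group on the x axis, with the mean (long line) and SD (bars) of 3 libraries. The axes of Cyp1b1 and Nos2 are logarithmic and all others start at 0. In both backgrounds Cyp1a1, Clec7a, C1qc, Nfe2l2, Ndrg1 and Nos2 were lower and Hspa5 and Xpo1 higher with ML351, and Cyp1b1 overlapped without cytokines.

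Several macrophage transcripts fell. Of 18 macrophage markers, all measured, 7 were called and all 7 were lower with ML351, 16 lay below 0, 2 lay above it, and the median was -0.43 against 0.007 over all genes. Of all genes 0.88% were called lower and 52.2% lay above 0. The medians of the markers were -0.39 without and -0.37 with cytokines. In 8 of the 18 the ML351 libraries were below all controls within both backgrounds, against 1.33% of all genes. Their summed level was 255 to 263 CPM in vehicle and 191 to 216 with ML351, then 419 to 432 with cytokines and 362 to 368 in the combination, with no overlap in either background. In bulk islets, fewer cells of a type and less RNA per cell cannot be told apart. Without ML351 replicate 1 and cytokines replicate 1, 2 of the 18 were called at a median of -0.43, and with the acinar covariate 4 at -0.41.

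Clec7a (chr6:129461591-129472779), which encodes the fungal beta-glucan receptor dectin-1 of myeloid cells, had 14.6, 12.3 and 14.7 CPM in vehicle and 8.20, 9.11 and 8.90 with ML351. With cytokines it had 25.3, 25.3 and 24.1, and in the combination 15.7, 15.2 and 17.4. All ML351 libraries were below all controls of their background by similar ratios (averaged log2 fold change -0.65, SE 0.069, adjusted p = 0.00068, the smallest of any gene). C1qc (chr4:136889804-136893065), a chain of complement C1q made chiefly by macrophages, had 10.7, 11.8 and 10.4 CPM in vehicle, 8.03, 7.76 and 6.34 under ML351, 23.5, 22.3 and 21.8 under cytokines and 15.8, 15.5 and 17.1 in the combination. It too was apart in both backgrounds (-0.53, SE 0.074, adjusted p = 0.0045). Both calls held under all 22 alternative analyses. Of these analyses 12 omit 1 library each, and 1, without the low-count filter, repeats the main fit because every gene passed that filter. Of the other C1q chains, C1qb fell (-0.40, SE 0.081, adjusted p = 0.026) and C1qa was at -0.21 (adjusted p = 0.058).

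Laptm5, a lysosomal membrane protein of blood cells, fell by 0.51 on the log2 scale (adjusted p = 0.027). Fcer1g and Tyrobp, both adaptors that carry signals from myeloid receptors, had log2 fold changes of -0.47 (adjusted p = 0.029) and -0.42 (adjusted p = 0.024), and Ctss, a protease of antigen-presenting cells, of -0.33 (adjusted p = 0.027). Of the markers that define the cell type most narrowly, Adgre1, the F4/80 antigen, was at -0.56 (adjusted p = 0.051) and Csf1r, the receptor that keeps macrophages alive, at -0.43 (adjusted p = 0.11). Cd68 was at -0.03 (adjusted p = 0.90), and Mertk and Cd14 overlapped in both backgrounds. The highest member was Cx3cr1, the fractalkine receptor, at 0.83 (SE 0.53, adjusted p = 0.47). It was at -0.37 without cytokines, where it had 46, 54 and 40 counts in vehicle against 47, 50 and 27 under ML351. With cytokines it had 0, 1 and 0 counts against 2, 2 and 1 in the combination, higher but too few for a fold. Gpnmb, a glycoprotein of lysosome-rich macrophages, fell by 0.59 (SE 0.082, adjusted p = 0.0068) and held under all 22 alternatives. Single omissions ended the calls of C1qb (vehicle replicate 1 or 2 or cytokines replicate 1), Fcer1g (vehicle replicate 1 or 2 or cytokines replicate 3 or 4), Tyrobp (vehicle replicate 2 or cytokines replicate 1), Ctss (vehicle replicate 1 or 2 or cytokines replicate 4) and Laptm5 (any vehicle library, cytokines replicate 1 or combination replicate 2), with adjusted p-values of 0.051 to 0.076.

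MHC class II molecules, which show peptides to helper T cells, lay below 0 in all 7 of the 7 members measured, with a median of -0.38. Of all genes 0.88% were called lower and 52.2% lay above 0. Of the 7 members 1 was called: H2-Aa, the alpha chain of I-A, had 6.49, 6.77 and 6.58 CPM in vehicle and 4.04, 3.32 and 4.21 with ML351, but 67.9, 61.2 and 69.9 with cytokines and 58.0, 68.5 and 44.9 in the combination. The groups were apart without cytokines and overlapped with them (averaged log2 fold change -0.50, SE 0.10, adjusted p = 0.031). H2-Ab1, its partner chain, was at -0.38 (adjusted p = 0.072) and the invariant chain Cd74 at -0.30 (adjusted p = 0.090). The summed level was 63.5 to 68.9 CPM in vehicle against 45.1 to 48.7 with ML351, and 927 to 972 with cytokines against 710 to 1065 in the combination. Of the 7 members 0 were called by edgeR without ML351 replicate 1 and cytokines replicate 1, and 0 with the acinar covariate (medians -0.32 and -0.37), against 4 by DESeq2 and 4 at an unadjusted p under 0.05 in the full data. The H2-Aa call ended under 7 of the 12 omissions of 1 library (adjusted p = 0.052 to 0.083).

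**Figure D3:**
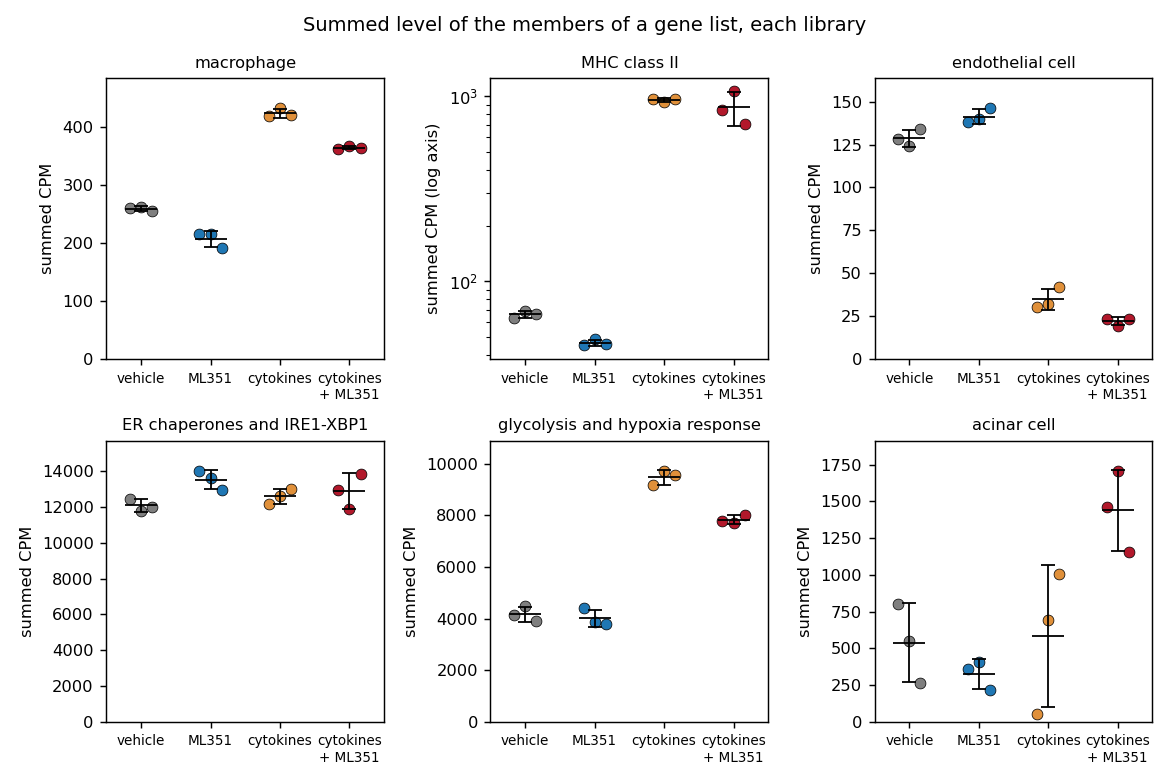
Points are the summed CPM of the members of a gene list in 1 library, by group on the x axis, with mean and SD of 3 libraries. The MHC class II axis is logarithmic and all others start at 0. Macrophage sums were lower with ML351 in both backgrounds, glycolysis sums overlapped without cytokines and were lower with them, and acinar sums were highest in the 3 combination libraries.

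Chaperones and folding enzymes of the endoplasmic reticulum (ER), which are induced when unfolded protein builds up, rose in 5 of 30 cases, by small amounts. Of the 30 members, all measured, 26 lay above 0, 5 were called, all higher, and the median was 0.08, with 0.17 without cytokines (27 above 0) and 0.03 with them (20 above 0). Of all genes 52.2% lay above 0 in the average and 0.667% were called higher. A like skew was seen in a list without a call, heat shock, with 19 of 21 genes above 0 at a median of 0.09. The summed level of the list was 11809 to 12481 CPM in vehicle, below the 12964 to 14012 with ML351, and 12159 to 13024 with cytokines, overlapping the 11878 to 13881 of the combination. The promoters of Hspa5 and Pdia6 (RefSeq, GRCm38.p6, chr2:34771840-34772139 and chr12:17266339-17266638, both plus strand, 5′ to 3′) are shown because, of the called members, these hold the ER stress response element. Capitals mark it, CCAAT and CCACG with 9 bases of any kind between them, searched on both strands.
Hspa5: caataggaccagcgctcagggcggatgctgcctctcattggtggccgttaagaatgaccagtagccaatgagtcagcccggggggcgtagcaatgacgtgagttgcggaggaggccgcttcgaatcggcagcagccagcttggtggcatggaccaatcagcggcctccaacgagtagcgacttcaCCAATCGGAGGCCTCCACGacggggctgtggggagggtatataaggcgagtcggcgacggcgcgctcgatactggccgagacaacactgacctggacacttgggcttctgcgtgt
Pdia6: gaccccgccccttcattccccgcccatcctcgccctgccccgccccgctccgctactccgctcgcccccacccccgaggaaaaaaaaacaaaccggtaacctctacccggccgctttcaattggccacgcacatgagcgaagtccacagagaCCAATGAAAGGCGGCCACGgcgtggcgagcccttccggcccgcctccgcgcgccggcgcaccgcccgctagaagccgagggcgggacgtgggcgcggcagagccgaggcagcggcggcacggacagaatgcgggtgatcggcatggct
The element was present in 0.119% of all 32851 windows (39 of them), and in 9 of the 24 list members in the promoter table. Those 9 were Calr, Canx, Creld2, Derl3, Dnajc3, Hsp90b1, Hspa5, Pdia6 and Syvn1, and of them only Hspa5 and Pdia6 were called. Pdia4 and Edem2, also called, had no match in their windows, and Ssr2, also called, was not among the 9.

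Hspa5 (chr2:34771970-34777547), the ER chaperone BiP, had 1893, 1777 and 1900 CPM in vehicle and 2268, 2153 and 2152 with ML351. With cytokines it had 2041, 2124 and 2273 CPM, and in the combination 2619, 2448 and 2793. The ML351 libraries were above their controls in both backgrounds (averaged log2 fold change 0.26, SE 0.043, adjusted p = 0.0084). Pdia4 and Pdia6, which form disulphide bonds in new proteins, rose by 0.20 (SE 0.040, adjusted p = 0.024) and 0.19 (SE 0.042, adjusted p = 0.036). Edem2, which marks misfolded glycoproteins for disposal, rose by 0.20 (SE 0.042, adjusted p = 0.032). Ssr2, a subunit of the complex that helps proteins into the ER, made up the fifth call (0.19, adjusted p = 0.041). The relative of Edem2, Edem3, was not on the list and was singled out after its values were seen: it rose by 0.30 (SE 0.045, adjusted p = 0.0061) under every alternative. Hsp90b1, the ER form of Hsp90, was at 0.05 (adjusted p = 0.75). Omitting 1 library ended the calls of Pdia4, Edem2 and Pdia6 under 7, 10 and 10 of 12 omissions (adjusted p up to 0.091), and without ML351 replicate 1 and cytokines replicate 1 none of the 30 was called by edgeR and Hspa5 had an adjusted p of 0.056. With the acinar covariate 1 of the 30 was called. Genes of the integrated stress response, listed separately, showed no call among 27 members (median 0.05), with Atf4 at 0.12 (adjusted p = 0.15) and Ddit3, which encodes CHOP, at 0.07 (adjusted p = 0.46).

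Of the genes of glycolysis and of the response to low oxygen, 4 fell. Of the 29 members, all measured, 26 lay below 0, with a median of -0.19 that was -0.08 without cytokines and -0.28 with them. Of all genes 0.88% were called lower and 52.2% lay above 0. Ndrg1 (chr15:66929318-66969640), a hypoxia-induced gene, had 184, 195 and 209 CPM in vehicle and 162, 177 and 157 with ML351, then 421, 478 and 409 with cytokines and 327, 311 and 334 in the combination. Its groups were apart in both backgrounds (-0.34, SE 0.049, adjusted p = 0.0055). Egln1, the oxygen-sensing prolyl hydroxylase that marks HIF for destruction, fell by 0.29 (SE 0.049, adjusted p = 0.011). Both held under all 22 alternatives. Ankrd37, a HIF target, fell by 0.54 (adjusted p = 0.027), and Pgam1, a glycolytic mutase, by 0.22 (adjusted p = 0.046). These calls ended under 6 and 10 of the 12 omissions, and 3 of the 29 were called without ML351 replicate 1 and cytokines replicate 1 and 3 with the acinar covariate. The summed level of the list was 3891 to 4479 CPM in vehicle, overlapping 3783 to 4396 with ML351, and 9159 to 9711 with cytokines against 7711 to 8026 in the combination.

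Most inflammatory genes did not pass the test. Of 30 NF-kB targets 2 were called, both lower, at a list median of 0.00. That average joins unlike medians, 0.06 without cytokines (17 above 0 and 13 below) and -0.11 with them (8 above and 22 below). The summed level was 478 to 515 CPM in vehicle, overlapping 474 to 527 with ML351. With cytokines it was 7510 to 8020, above the 6849 to 7140 of the combination. Nos2, the inducible nitric oxide synthase, had 4.97, 3.5 and 3.18 CPM in vehicle against 2.42, 2.73 and 3.07 with ML351, and 1279, 1222 and 1176 with cytokines against 957, 946 and 1092 in the combination. Every ML351 library was below its controls, narrowly so without cytokines (averaged log2 fold change -0.40, SE 0.090, adjusted p = 0.044). Nfkb1, the gene of the p50 subunit, was lower by 0.31 on the log2 scale (SE 0.068, adjusted p = 0.039). Both calls ended without ML351 replicate 1 and cytokines replicate 1 and with the acinar covariate, and under 9 and 8 of 12 omissions of 1 library. Icam1, an adhesion molecule, was at -0.37 (adjusted p = 0.057) and Relb, another subunit, at 0.32 (adjusted p = 0.070).

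Of 36 interferon-response genes 1 rose, the antiviral Rsad2 (0.35, SE 0.081, adjusted p = 0.044), and 1 fell, the GTPase Gbp2 (-0.29, SE 0.065, adjusted p = 0.037), with a median of 0.03. None of 20 chemokines was called by edgeR, 4 of them reached an unadjusted p under 0.05, and their median was -0.21. Cxcl10, which draws T cells into islets, had 1299, 978 and 1069 CPM with cytokines and 1326, 1245 and 949 in the combination (averaged log2 fold change 0.05, SE 0.15, adjusted p = 0.91). Among 17 MHC class I and antigen-processing genes 2 fell, the nonclassical H2-T23 (-0.23, adjusted p = 0.032) and the immunoproteasome subunit Psmb10 (-0.21, adjusted p = 0.034), at a median of -0.01. Without cytokines 9 lay above 0 and 8 below (median 0.02), and with them 2 above and 15 below (median -0.07). Their summed level with cytokines was 17356 to 17853 CPM, above the 15955 to 17212 of the combination. Without cytokines it overlapped, at 2131 to 2242 in vehicle and 2139 to 2224 with ML351. Leaving out 1 library ended the calls of Rsad2, Gbp2, H2-T23 and Psmb10 under 11, 8, 6 and 6 of 12 omissions. With the acinar covariate all 4 ended, and without ML351 replicate 1 and cytokines replicate 1 all but that of Gbp2. Il6ra, the receptor for interleukin 6, fell by 0.42 on the log2 scale (SE 0.079, adjusted p = 0.019), a call that ended without vehicle replicate 1 or 2 (adjusted p = 0.056 and 0.058), without ML351 replicate 1 and cytokines replicate 1 (0.076) and with the acinar covariate (0.051).

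Genes that handle oxidants changed little in number. Of 26 targets of NRF2, the transcription factor that drives the antioxidant response, 2 were called, and one of these was Nfe2l2 itself, the gene of NRF2 (chr2:75675513-75704641). It had 37.2, 34.1 and 37.9 CPM in vehicle, 30.8, 28.7 and 29.9 under ML351, 78.8, 82.4 and 81.4 under cytokines and 62.2, 71.6 and 69.7 in the combination. The groups were apart in both backgrounds (-0.27, SE 0.048, adjusted p = 0.013), and the call held under all 22 alternatives. Gstp1, a glutathione transferase with a near-identical copy, fell by 0.41 (SE 0.069, adjusted p = 0.017). Of the 22 alternatives, its call ended only with the replicate number as a block in edgeR (adjusted p = 0.059). The classic NRF2 targets Hmox1 and Nqo1 were at 0.08 (adjusted p = 0.64) and -0.33 (adjusted p = 0.19), and Gclc, which starts glutathione synthesis, at 0.59 (SE 0.18, adjusted p = 0.14) with 1 ML351 library at 134 CPM and the other two at 71.6 and 73.4. The median of the list was -0.01.

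Of 25 superoxide, peroxide and thioredoxin enzymes only Sod1, the cytosolic superoxide dismutase, was called (-0.20, SE 0.048, adjusted p = 0.047, a call that ended under 8 of 12 omissions, without ML351 replicate 1 and cytokines replicate 1, and with the acinar covariate). Sod2 was at -0.09 (adjusted p = 0.29), Gpx1 at -0.07 (adjusted p = 0.58), Cat at 0.14 (adjusted p = 0.43) and Txnip, the thioredoxin inhibitor, at -0.26 (adjusted p = 0.089). Of 10 NADPH oxidase genes, which make superoxide, 3 lay above 0 and 7 below, at a median of -0.16. None was called higher, although the highest log2 fold change in the list was 3.44. Without ML351 replicate 1 and cytokines replicate 1 the highest was 0.93. Cybb, the 1 call, fell. It encodes the catalytic subunit NOX2 of phagocytes and had 3.69, 4.02 and 3.36 CPM in vehicle against 2.80, 2.66 and 2.44 with ML351, and 18.3, 19.6 and 18.8 with cytokines against 16, 15.5 and 15.9 in the combination. It was apart in both backgrounds (-0.37, SE 0.080, adjusted p = 0.034) and is a phagocyte gene, so it stands beside the macrophage markers above, whose part in it was not tested. The Cybb call ended under 8 of 12 omissions, without ML351 replicate 1 and cytokines replicate 1, and with the acinar covariate.

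Of 20 eicosanoid genes measured, lipoxygenases and other enzymes of that metabolism together, 1 was called, and it was no lipoxygenase. Hpgds, which makes prostaglandin D2 outside the brain, rose from 21.3, 21.1 and 22.1 CPM in vehicle to 31.9, 25.2 and 30.5 with ML351, and from 95.3, 100 and 92.4 with cytokines to 114, 104 and 111 in the combination. All 6 ML351 libraries were above their controls (averaged log2 fold change 0.32, SE 0.055, adjusted p = 0.012), and the call held without any single library and ended without ML351 replicate 1 and cytokines replicate 1 together (adjusted p = 0.056). Alox5ap, the partner protein of 5-lipoxygenase, had 7.89, 6.49 and 8.15 CPM in vehicle, 4.93, 5.32 and 6.34 under ML351, 2.14, 1.82 and 2.32 under cytokines and 1.42, 1.5 and 1.76 in the combination. Its groups were apart in both backgrounds, but it did not pass the test (-0.43, SE 0.13, adjusted p = 0.10).

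Endocrine identity genes showed few calls. None of 18 beta-cell genes was called by edgeR, 1 reached an unadjusted p under 0.05, 13 lay below 0, and the median was -0.08. Ins1 and Ins2, the insulin genes, were both at -0.13 (adjusted p = 0.36 and 0.33), Pdx1, the master regulator of beta cells, at -0.10 (adjusted p = 0.56) and Nkx6-1, another beta-cell factor, at -0.20 (adjusted p = 0.11). Gcg, the glucagon gene, was at 0.12 (SE 0.25, adjusted p = 0.87). Ppy, pancreatic polypeptide, was at -0.76 with a wide error (SE 0.43, adjusted p = 0.42), since ML351 replicates 1 and 2 had 2323 and 2421 CPM and replicate 3 had 7114, near the 7551 to 8833 of vehicle. Of 6 delta-cell genes the transcription factor Hhex was called (0.60, SE 0.14, adjusted p = 0.045), with overlapping groups without cytokines and 1.17, 2.40 and 1.76 CPM with cytokines against 4.25, 2.91 and 3.94 in the combination, and its call ended under 10 of 12 omissions, without ML351 replicate 1 and cytokines replicate 1, and with the acinar covariate. Sst, the somatostatin gene, was at 0.34 (adjusted p = 0.18).

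Of 24 genes of hormone release 3 were called, all lower, at a list median of -0.02. Rph3al (chr11:75830999-75938429), an effector of Rab27 and Rab3 on secretory granules, had 134, 135 and 143 CPM in vehicle, 115, 123 and 122 under ML351, 96.7, 107 and 107 under cytokines and 79.1, 81.3 and 81.4 in the combination. It was apart in both backgrounds (-0.28, SE 0.041, adjusted p = 0.0063). Cplx2, complexin 2, which clamps and promotes membrane fusion, fell by 0.36 (SE 0.063, adjusted p = 0.012). Both calls held under all 22 alternatives. Rab3b, a granule GTPase, fell by 0.23 (adjusted p = 0.042), which ended under 9 of 12 omissions, without ML351 replicate 1 and cytokines replicate 1, and with the acinar covariate. Pcsk1n, the inhibitor of prohormone convertase 1, was on no list and was singled out after its values were seen. It fell from 613, 595 and 631 CPM to 489, 557 and 468 without cytokines and from 483, 439 and 456 to 389, 362 and 367 with them (-0.29, SE 0.045, adjusted p = 0.0077).

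Among regulators, Xpo1 (chr11:23256041-23298249) was the rise with the smallest adjusted p. It encodes exportin 1, the nuclear export receptor for proteins with leucine-rich signals, and had 56.1, 54.1 and 53.7 CPM in vehicle, 70.2, 68.5 and 70.0 under ML351, 47.6, 45.1 and 44.0 under cytokines and 57.8, 57.1 and 60.5 in the combination. All ML351 libraries were above all controls of their background (0.35, SE 0.041, adjusted p = 0.00093), the differences were 0.35 and 0.36, and the call held under all 22 alternatives. It was the 1 call among 34 nuclear transport genes, whose median was 0.02. The tRNA exporter Xpot was at 0.20 (adjusted p = 0.057) and the import receptor Ipo7 at 0.16 (adjusted p = 0.11).

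Of 21 immediate early genes, which respond within minutes to signals such as calcium, 16 lay above 0 at a median of 0.16, and 1 was called. Nr4a2, an orphan nuclear receptor, had 17.8, 17.0 and 17.9 CPM in vehicle against 28.3, 22.8 and 17.9 with ML351, and 3.27, 2.55 and 3.22 with cytokines against 7.18, 5.65 and 4.15 in the combination. ML351 replicate 3 was level with the highest vehicle library, and the other libraries were higher by clear margins (0.65, SE 0.13, adjusted p = 0.034). Its relative Nr4a1 was at 0.96 (SE 0.22, adjusted p = 0.057) and Fos at 0.84 (SE 0.27, adjusted p = 0.16). The Nr4a2 call ended under 10 of 12 omissions (adjusted p = 0.052 to 0.086), without ML351 replicate 1 and cytokines replicate 1, and with the acinar covariate.

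In the circadian clock, where 19 genes were measured, 1 rose and 1 fell. Nr1d1, the repressor REV-ERBα, fell from 26.9, 23.3 and 23.4 CPM to 22.8, 22.6 and 19.4 without cytokines. With cytokines it fell from 116 in each library to 79.3, 89.0 and 83.9 (-0.32, SE 0.053, adjusted p = 0.0086), and it was called under all 22 alternatives. Clock, the activator, rose by 0.23 (SE 0.054, adjusted p = 0.046), which ended under 11 of 12 omissions, without ML351 replicate 1 and cytokines replicate 1, and with the acinar covariate. Of 24 p53 targets 2 rose and 1 fell. The autophagy gene Trp53inp1 rose by 0.24 and the kinase gene Plk3 by 0.21, while Gadd45b, a stress sensor, fell by 0.32 (adjusted p = 0.043, 0.047 and 0.046), and each of these calls ended under 9 or 10 of 12 omissions, without ML351 replicate 1 and cytokines replicate 1, and with the acinar covariate.

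Across all 41 lists, 869 genes were tested and 47 of them were called (5.41%), 15 higher and 32 lower, beside 1.55% of all genes, and 22 lists held a call. The lists were put together with earlier results of these data known, so this share is no evidence that they stand out. No member was called by edgeR in 19 lists, among them oxidative phosphorylation (32 genes, median -0.00), cell cycle (32, 0.12), apoptosis and BCL2 family (32, 0.01), glucose coupling and ion channels (27, -0.06), cholesterol synthesis (25, -0.00), fatty acid synthesis and oxidation (26, -0.04), heat shock (21, 0.09), proteasome (31, 0.03) and cytosolic ribosomal proteins (38, -0.05). At an unadjusted p under 0.05 these lists held 3, 5, 4, 5, 8, 6, 9, 1 and 4 genes. Signs were skewed in some of them too. Above 0 lay 19 of 21 heat shock and 24 of 31 proteasome genes, and below 0 lay 33 of 38 cytosolic ribosomal protein genes. Oxidative phosphorylation was even, with 16 above and 16 below. The remaining lists with a call were lysosome and autophagy, where Gpnmb fell and the calcium channel gene Mcoln1 rose, and aminoacyl-tRNA synthetases, where Qars fell by 0.19 (adjusted p = 0.043). The calls of Mcoln1 and Qars ended without ML351 replicate 1 and cytokines replicate 1, with the acinar covariate, and under 11 of 12 omissions of 1 library.

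**Figure D4:**
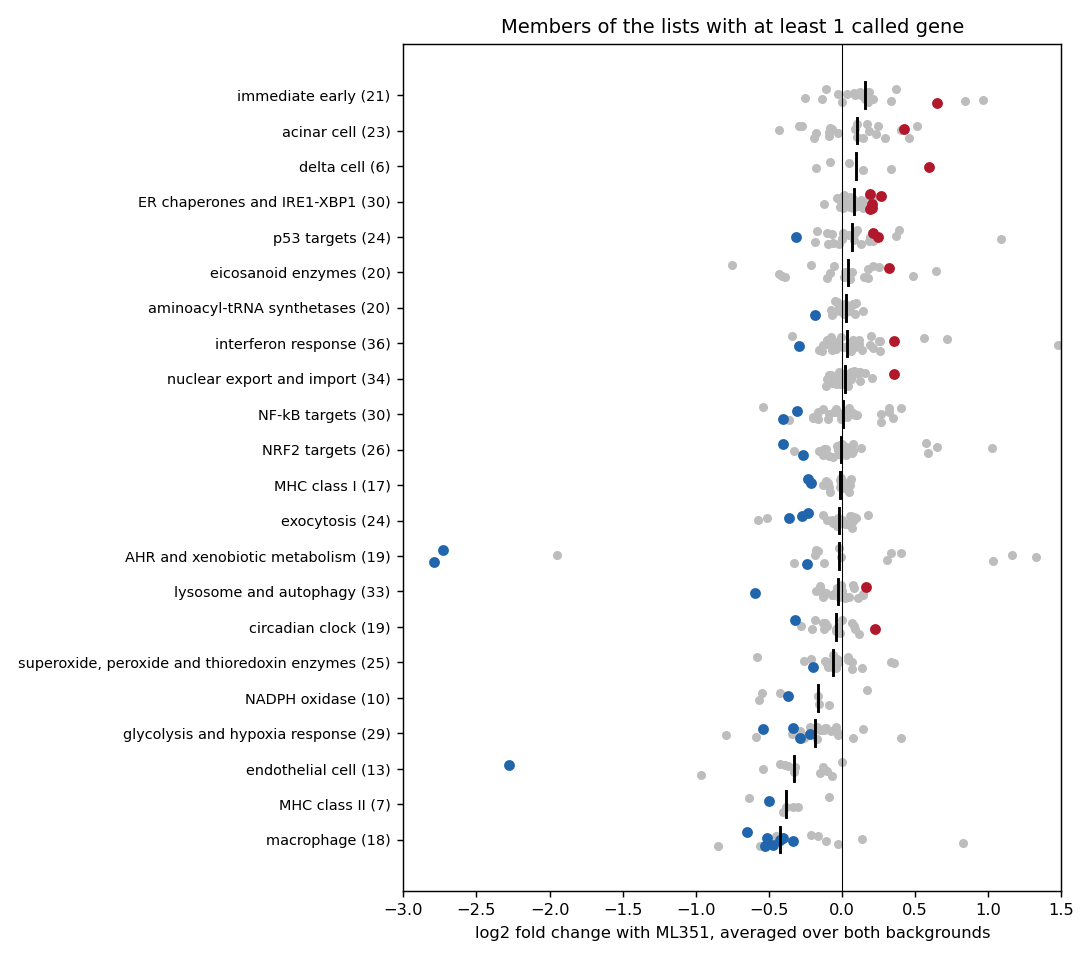
Each point is a member of a gene list, with its averaged log2 fold change on the x axis, grey where not called, blue where lower and red where higher, and the black bar is the list's median. The 22 lists with a call are ordered by median from macrophage (-0.43) at the bottom to immediate early (0.16) at the top, and 4 members lie outside the plotted range of -3 to 1.5.

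Outside the lists were 171 of the 218 called genes. Named by the rule for the largest changes apart in both backgrounds were, among the falls, Cda, cytidine deaminase, which recycles pyrimidines (24.5, 24.4 and 23.3 CPM in vehicle, 17.8, 20.5 and 17.9 under ML351, 28.1, 34.2 and 29.6 with cytokines, 19.7, 18.6 and 17.1 in the combination). Its groups were apart and its call held under all 22 alternatives (-0.54, SE 0.066, adjusted p = 0.0012). Mir6236 (-0.57, adjusted p = 0.049) is annotated on a short stretch whose reads may belong to another transcript, and its call ended under 11 of 12 omissions.

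Among the rises were St7, first described as a candidate tumour suppressor (0.47, SE 0.081, adjusted p = 0.012), Cxadr, the coxsackievirus and adenovirus receptor of cell junctions (0.47, SE 0.10, adjusted p = 0.042), the nuclear noncoding RNA Malat1 (0.46, SE 0.079, adjusted p = 0.018) and the cyclin kinase regulator Cks1b (0.40, SE 0.079, adjusted p = 0.026). St7 held without any single library and ended without ML351 replicate 1 and cytokines replicate 1 together (adjusted p = 0.056). Malat1 lost its call without vehicle replicate 1 or cytokines replicate 1 (adjusted p = 0.051 in each), without ML351 replicate 1 and cytokines replicate 1 together (0.075) and with the acinar covariate (0.051). Cks1b lost it without vehicle replicate 2 or 4, ML351 replicate 1 or cytokines replicate 1 (adjusted p = 0.053 to 0.061), without the latter 2 together (0.10) and with the covariate (0.062), and Cxadr under 8 of 12 omissions. Ccdc107, Chac2, Igsf5, Mpp7 and Fnbp4 rose by 0.37 to 0.42, and all but Ccdc107 and Mpp7 lost their call under 10 or more omissions. Ccdc107 lost it without vehicle replicate 2 or 4 or cytokines replicate 1, and Mpp7 without vehicle replicate 1 or 4 or cytokines replicate 1 (adjusted p = 0.051 to 0.067), and both lost it without ML351 replicate 1 and cytokines replicate 1 and with the acinar covariate (0.051 to 0.076).

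In all, 24 of the 218 were called under every one of the 22 alternatives, and 0 of the 218 changed sign under any. The alternatives refit the same libraries by which the 218 were chosen, so nothing is read from the unchanged signs. Those of the 24 not yet described were picked out after their values were seen. Enpp2, autotaxin, which makes lysophosphatidic acid, fell from 472, 491 and 479 CPM to 338, 377 and 380 without cytokines and from 254, 245 and 245 to 179, 200 and 218 with them (-0.36, SE 0.047, adjusted p = 0.0023). Mapk3, the kinase ERK1, fell by 0.29 (SE 0.039, adjusted p = 0.0023), as did, by 0.28, Itpk1, which phosphorylates inositol phosphates (adjusted p = 0.0084), Prkar1b, a regulatory subunit of protein kinase A (adjusted p = 0.0077), and Atp7a, a copper pump (adjusted p = 0.014). Ppip5k2, which makes inositol pyrophosphates, Senp5, a SUMO protease, and Lrrc10b each rose by 0.32 (adjusted p = 0.0078, 0.0080 and 0.012). P4ha2, a collagen prolyl hydroxylase, fell by 0.31 (adjusted p = 0.019) and Maged2 by 0.27 (adjusted p = 0.0078).

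The few called genes with fitted changes above 2-fold were mostly scarce. Vwf, von Willebrand factor of endothelial cells, had 44, 45 and 35 counts in vehicle, 24, 36 and 37 under ML351, 18, 12 and 25 under cytokines and 2, 1 and 0 in the combination. The summed counts of the combination, scaled to library size, were 0.0569 of the cytokine level (95% exact interval 0.0114 to 0.175, counting error only) and those of ML351 alone 0.683 of vehicle (0.518 to 0.898). The edgeR call of the average (adjusted p = 0.0082) ended under the additive model (adjusted p = 0.14), and the difference between backgrounds did not pass the interaction test (adjusted p = 0.24). Oprl1, the nociceptin receptor, had 26, 50 and 40, then 17, 48 and 21, then 15, 6 and 5, and in the combination 0, 0 and 1 counts, and its call (adjusted p = 0.037) ended under 8 of 12 omissions. Lpcat2, a lysophospholipid acyltransferase that also makes platelet-activating factor, fell by 1.03 on the log2 scale (SE 0.19, adjusted p = 0.019) and was apart in both backgrounds. It lost its call without vehicle replicate 2 or cytokines replicate 4 (adjusted p = 0.052 and 0.060), or without ML351 replicate 1 and cytokines replicate 1 together (0.075). Agpat9, a glycerol-phosphate acyltransferase, had 0.424, 0.280 and 0.368 CPM in vehicle, 2.85, 1.02 and 0.748 under ML351, 4.68, 6.03 and 5.34 under cytokines and 6.65, 6.54 and 7.26 in the combination (1.21, SE 0.28, adjusted p = 0.046, ended under 10 of 12 omissions).

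For markers of some other cell types the 2 differences had opposite signs, although no member of these lists passed the interaction test. Of 13 endothelial markers all 13 had an averaged log2 fold change below 0 and 1, Vwf, was called, but the median was 0.27 without cytokines and -0.69 with them. Their summed level was 124 to 134 CPM in vehicle and 138 to 146 with ML351, then 30.2 to 41.8 with cytokines and 19.3 to 23.6 in the combination. Plvap, a protein of fenestrated endothelium, was at 0.32 without and -1.09 with cytokines (interaction adjusted p = 0.18). Acinar markers had a median of -1.12 without cytokines and 1.07 with them, which cancelled to 0.10 in the average, and 1 of 23 was called, Bhlha15 (0.42, SE 0.077, adjusted p = 0.018), a transcription factor of secretory cells that was at 87.9 to 92.2 CPM in vehicle and 7.51 to 11.5 with cytokines. Its call ended without vehicle replicate 2 or cytokines replicate 1 (adjusted p = 0.053 and 0.054), without ML351 replicate 1 and cytokines replicate 1 together (0.092) and with the acinar covariate (0.051), and the median of the acinar list was -0.38 and -0.23 in these last 2 analyses. The covariate is the log2 summed level of these same markers, Bhlha15 among them, so nothing is read from its effect on this list. The part of acinar or endothelial RNA in other results was not tested beyond the covariate above. Of 14 lymphocyte markers 2 were in the table and neither was called, and of 6 Schwann-cell, 11 ductal and 14 stellate or fibroblast markers none was called by edgeR, with 1, 2 and 0 at an unadjusted p under 0.05. The Schwann-cell median was -0.72, with all 6 members below 0, the lymphocyte median -0.42, the stellate or fibroblast median -0.13 and the ductal median 0.10, beside -0.43 for the macrophage list.

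The interaction, which tests whether the 2 differences are unequal, called 1 of 14089 genes (0.0071%, and 1160 or 8.23% before adjustment). That gene was Ankrd10, which encodes an ankyrin-repeat protein. It had 84.2, 80.5 and 88.9 CPM in vehicle and 68.3, 68.7 and 71.4 with ML351, but 30.5, 29.6 and 31.9 with cytokines and 40.2, 39.5 and 36.7 in the combination. It was lower with ML351 in one background and higher in the other without overlap, so its average was 0.03 (adjusted p = 0.79). The interaction call ended under 10 of 12 omissions of 1 library and held without vehicle replicate 2 or combination replicate 4. The next smallest p-values belonged to Stk38l, a kinase gene that was called in the average (0.28, adjusted p = 0.012) with -0.01 without and 0.56 with cytokines (interaction adjusted p = 0.13), and to Slc40a1, the iron exporter ferroportin, with -0.21 and 0.28 (interaction adjusted p = 0.17). Of the 218 called genes 64 had an unadjusted interaction p under 0.05, and no interaction among them passed after adjustment.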

How the data were processed

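Total RNA of 12 islet libraries (nonstranded SMARTSeq v4, per the labels' protocols) was sequenced. The authors deposited 1 table of whole-number counts per gene, not normalized. Per the submitters' processing notes the tools were STAR, featureCounts from Subread, FastQC and DESeq2 on build mm10, with no role or version given. All 14089 deposited genes passed filterByExpr and were tested with edgeR 4.0.16 (R 4.3.3): TMM scaling, group means, robust quasi-likelihood F-test, Benjamini-Hochberg adjustment over all genes, called under 0.05. CPM use TMM-scaled totals, and each SE was obtained from the fold change and its F statistic. Alternatives used DESeq2 1.42.0, limma 3.58.1 (voom), other scalings, filters and models, and fewer libraries. Totals of 20208286 to 27193026 counts leave genes under about 1 CPM with few counts. Replicates of a group differed by more than sampling noise (lowest chi-square per degree of freedom 4.115), so none was merged. The script was tested on simulated data. It recovered 23 of 50 genes changed 1.2-fold, 45 of 50 at 1.5-fold, 46 of 50 at 2-fold and 50 of 50 at 3-fold. It also called 16 unchanged genes, so a called gene may be a false call. The changed genes were drawn from those with a mean of at least 50 counts, so the recovery does not cover scarcer genes. A gene not called may still have changed, mostly by a small amount but in some cases by up to 2-fold, and a scarce gene by more. Genes named are the 12 largest rises and 12 largest falls called in the averaged contrast at a mean log2 CPM from 3 upwards and with libraries apart in both backgrounds, up to 4 members of each list by smallest p, the 5 smallest interaction p-values, and a fixed set of lipoxygenase, hormone, inflammation and stress genes. Further genes were named after their values were seen, and not all are marked so where they appear. Unmarked ones include Tiparp, Gsta2, C1qa, Ctss, Adgre1, Csf1r, Cd68, Cx3cr1, Ssr2, Hsp90b1, Gdap1l1, Oprl1, Lpcat2, Agpat9, Mat2a and Nnat. The contrast, the 41 lists and the named set were chosen with earlier results of these data known. Coordinates are from GENCODE M21 on mm10, with 13563 symbols matched to 1 gene, and 14056 symbols matched a RefSeq name. Kits without strand do not separate genes whose exons overlap.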

Additional observations from a re-analysis of the deposited data

Results flagged for a closer look

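Ankrd10 stood out because its response to ML351 differed between the backgrounds by a test of that difference: the interaction log2 fold change was 0.62 (edgeR, adjusted p = 0.030), from -0.28 without cytokines (lower in 3 of 3 ML351 libraries) to 0.34 with them (higher in 3 of 3). It was the 1 gene of 14089 to pass that test. Its interaction call stayed under 2 of the 12 omissions of 1 library (vehicle replicate 2 and combination replicate 4) and ended under the other 10.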

How the results depend on the processing

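Over the 22 alternatives, counts of called genes moved far more than the changes themselves, and 0 of the 218 genes changed sign. Selection in these same libraries largely fixes those signs. The number of genes called in the average (218, 94 higher and 124 lower) was 406 (269 lower) for genes at a mean log2 CPM from 3 upwards, where fewer genes are tested, 571 (203 and 368) with DESeq2, 123 (47 and 76) under the additive model, 63 (19 and 44) with the acinar covariate and 43 (13 and 30) without ML351 replicate 1 and cytokines replicate 1. Omitting 1 library gave 52 to 270 (19 to 98 higher, 33 to 194 lower). ML351 against vehicle (5 calls) gave 0 with DESeq2's size factors in edgeR, 23 with the stricter filter, 104 with DESeq2, 9 with limma-voom, 0 with the acinar covariate, 0 without those 2 libraries and 0 to 17 without 1 library. The combination against cytokines (202 calls) gave 521 with DESeq2, 7 with the acinar covariate, 76 without those 2 libraries and 54 to 236 without 1. The interaction (1 call) gave 2 with the stricter filter, 44 with DESeq2, 0 with the acinar covariate, 0 without those 2 libraries and 0 to 1 without 1. Other alternatives stayed within 1.5 times. Apart from fewer genes or libraries, the cause of these shifts was not tested.

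With the replicate number as a block, the average called 88 genes (35 higher and 53 lower), ML351 against vehicle 0, the combination against cytokines 53 and the interaction 0. Among the genes followed one by one, 44 lost their call with this block, most of them without mention above. Of 13 pairs of libraries with the same number, 2 had deviations correlated above 0.1 (r from -0.377 to 0.202, against -0.301 to 0.466 for different numbers). Deviations from the mean of only 3 libraries are noisy, so this cannot tell whether a number marks a shared islet batch. The labels do not say what the numbers stand for.

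Signs changed for some genes that were not called. Slc40a1 was at -0.00 under the additive model, and when libraries were left out Alox12 ranged from -0.34 to 0.05 (above 0 without vehicle replicate 1), Gcg from -0.06 to 0.30 and Hsp90b1 from -0.02 upwards (below 0 without combination replicate 4), Cxcl10 from -0.03 to 0.14 (below 0 without vehicle replicate 2, ML351 replicate 1 or combination replicate 1) and Cd68 from -0.12 to 0.03 (above 0 without vehicle replicate 2, ML351 replicate 3 or cytokines replicate 3). Depth limits Ahrr, Vwf, Oprl1 and Agpat9, which have few counts in some groups.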

Other observations

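Other genes of the early secretory pathway were called higher. They were picked out after their values were seen and so are no separate support for the ER group. Mcfd2, a cargo receptor partner, had 148, 147 and 149 CPM in vehicle, 196, 166 and 183 under ML351, 108, 105 and 96.7 under cytokines, and 116, 124 and 128 in the combination, apart in both backgrounds (log2 fold change 0.27, SE 0.047, edgeR adjusted p = 0.012, called under all 22 alternatives). Its partner Lman1 rose by 0.20 (adjusted p = 0.044), Bet1, a SNARE of ER-to-Golgi vesicles, by 0.28 (adjusted p = 0.019), Serp1, which protects proteins at the translocon, by 0.20 (adjusted p = 0.036), the chaperone gene Hspa13 by 0.19 (adjusted p = 0.036), and Gmppb and Alg6, which supply sugars for glycosylation, by 0.22 (adjusted p = 0.029) and 0.38 (adjusted p = 0.044). Leaving out 1 library ended the Bet1 call without vehicle replicate 2 or 4, ML351 replicate 1 or combination replicate 1 (adjusted p = 0.050 to 0.058), and the others from Lman1 to Alg6 under 7 to 11 of 12 omissions.

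Genes outside the marker list that myeloid cells can express were also called lower. They were picked out after their values were seen and so are no separate support for the macrophage group. Which cells of the islets they came from was not tested. Lgals3, galectin 3, had 41.2, 44.9 and 38.2 CPM in vehicle, 36.6, 27.2 and 35.7 under ML351, 154, 161 and 169 under cytokines and 123, 117 and 126 in the combination (-0.36, SE 0.065, adjusted p = 0.017). The Lgals3 call held without any single library and ended with the replicate number as a block in edgeR (adjusted p = 0.06). Cd36, a scavenger receptor, fell by 0.34 (adjusted p = 0.017, or 0.051 without vehicle replicate 1). The Fc receptor gene Fcgr3 fell by 0.54, Coro1a, coronin of blood cells, by 0.50, Acp5, an acid phosphatase of macrophages, by 0.53, and Pla2g7, which degrades platelet-activating factor, by 0.36 (adjusted p = 0.034, 0.038, 0.042 and 0.045), each ended under 9 or 10 of 12 omissions.

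Mat2a, which makes the methyl donor S-adenosylmethionine, rose by 0.33 (SE 0.050, adjusted p = 0.0068), with 0.09 without and 0.56 with cytokines (interaction adjusted p = 0.22). Nnat, an imprinted ER protein of beta cells, fell from 18.1, 17.8 and 17.4 CPM to 7.90, 10.4 and 11.7 without cytokines, and had 26.1, 20.6 and 28.5 with cytokines against 22.5, 23 and 18.1 in the combination (-0.53, SE 0.10, adjusted p = 0.020). The Nnat call ended without any 1 of the vehicle libraries (adjusted p = 0.050 to 0.059).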
